A study of Mus musculus with 5 samples.

Results

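The glycolysis and glycogen metabolism genes described here are 34 genes chosen by name, out of 49315 genes in the count tables. They comprise 22 glycolysis genes, from glucose entry to lactate dehydrogenase and including the PFKFB regulators of phosphofructokinase, 11 genes of glycogen synthesis and breakdown, and Txnip, which encodes a protein that restrains glucose uptake. All 34 were found by their GENCODE M21 (GRCm38) symbols. Poly-A RNA of whole hearts, from mice kept for 18 weeks on their diet, had been sequenced in 5 libraries. The HFHS group (3 libraries) ate a high-fat, high-sucrose diet and the chow group (2 libraries) a standard diet. Both groups had been given a single intravenous dose of iron dextran, and the hearts were rinsed with buffer and taken 48 hours later. No library without iron was analysed here, so the comparison is between the diets in mice that had all received iron. The labels describe the cells as mixed. Strain, sex and age were not given in the sources used here. The libraries are numbered as replicates, and nothing says more about their origin, such as whether each is a separate animal, so the p-values measure the spread between these libraries.

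In glycolysis, glucose is phosphorylated by hexokinase, committed to breakdown by phosphofructokinase, split by aldolase and carried through a chain of enzymes to pyruvate, which lactate dehydrogenase interconverts with lactate. Glycogen is the stored form of glucose: it is primed by glycogenin, extended by glycogen synthase, branched by the branching enzyme, and broken down by glycogen phosphorylase, which phosphorylase kinase activates, or by acid alpha-glucosidase in lysosomes. The adult heart draws most of its energy from fatty acids, and uses glucose, lactate and its glycogen store beside them.

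Of the 33 genes that could be tested, 14 rose and 7 fell in HFHS hearts at an edgeR adjusted p of at most 0.05, and 12 did not pass. The 21 calls are 63.6% of them, against 38.1% of the 14221 genes tested (19.4% higher and 18.7% lower). Without HFHS replicate 2, 13 of the 33 were called (12 higher, 1 lower), and calls over all genes fell as well, to 4248 of 14119. Without regard to the test, 18 of the 33 had every HFHS library above both chow libraries (29.2% of all genes did), 9 had every one below (29.4% of all genes) and 6 overlapped, so 58.5% of all genes and 27 of these 33 did not overlap. The median log2 fold change, HFHS minus chow, was 0.18 over the 33 genes and -0.012 over all tested genes. The 2 arms are given apart, and the difference between them was not tested. In the glycogen arm 7 of 11 genes rose and 2 fell, with a median of 0.51. In glycolysis 7 of 21 tested genes rose and 5 fell, with a median of -0.02. These 12 calls became 6 (5 higher, 1 lower) without HFHS replicate 2 and 7 (6 higher, 1 lower) without HFHS replicate 1. Over all genes the calls in these 2 fits were 4248 of 14119 and 4428 of 14046. From glucose entry to the PFKFB enzymes 6 of 10 genes rose, the other 4 did not pass, and the median was 0.33. From aldolase to lactate dehydrogenase 5 of 11 tested genes fell, Pkm rose, and the median was -0.17. These medians do not allow for transcript length, and refits that do are given below.

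**Figure D1:**
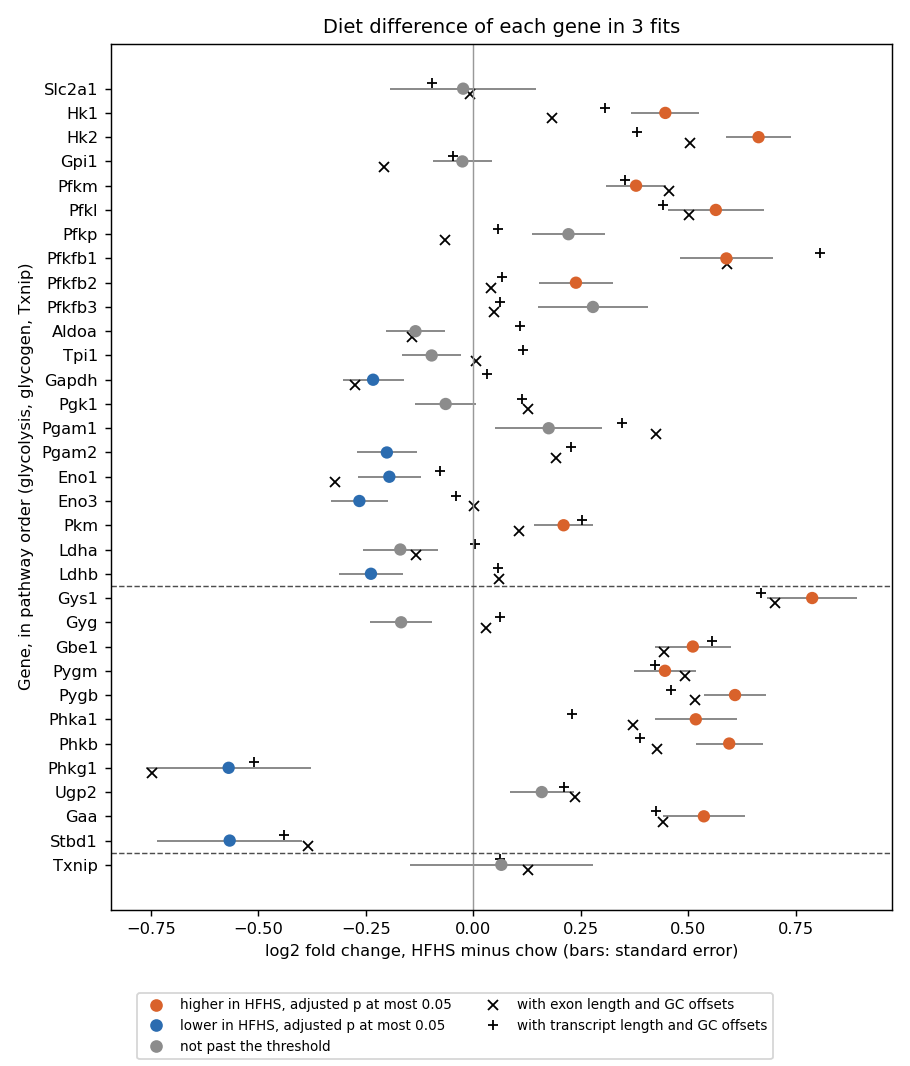
Log2 fold change of each tested gene, HFHS minus chow, in pathway order from top to bottom, with glycolysis, glycogen genes and Txnip separated by dashed lines. Filled points with bars show the fit without offsets and its standard error, coloured by call, and crosses and plus signs show the fits with offsets for exon length or transcript length and GC content. Hk1, Hk2, Pfkm, Pfkl, Pfkfb1 and 7 glycogen genes called higher lie to the right of 0 in all 3 fits, while Gapdh, Pgam2, Eno1, Eno3 and Ldhb lie to the left without offsets and between -0.08 and 0.23 with transcript-length offsets.

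The libraries held 14362766 to 17774735 counts over 19713 to 20278 genes with at least 1 count, and 30.3% to 33.8% of the counts were from mitochondrially encoded genes. Levels are given in CPM, a gene's count per 1000000 counts of a library size adjusted by TMM, a scaling for composition; marker sums use the total counts. The limit that a count of 0 allows, taken as 3 counts, lay between 0.162 and 0.215 CPM on the TMM scale and covers counting error only. Cardiomyocyte markers summed to 52333 to 57500 CPM in chow and 55232 to 57646 CPM in HFHS hearts and were thus high in every library labelled heart, with 2 of 7 genes higher and 3 lower. Fibroblast markers fell in 6 of 6 genes (1010 to 1093 CPM summed in chow, 642 to 681 CPM in HFHS), macrophage markers in 6 of 6 (191 to 209 CPM against 90.7 to 105.7 CPM), endothelial markers in 4 of 6 (993 to 1017 CPM against 762 to 782 CPM), mural markers in 3 of 5 (1133 to 1181 CPM against 853 to 894 CPM) and erythroid markers in 5 of 5 (1484 to 1699 CPM against 250.2 to 523.7 CPM). Of 5 adipocyte markers only Fabp4 could be tested, and it fell (log2 -1.26, adjusted p = 6.23e-08). Adipoq, Cidec and Retn held 0 to 1 counts, and Plin1 held 0 in chow and 3 to 4 in HFHS libraries. The fall of Fabp4 is therefore not read as a fall of adipocytes. In whole hearts, fewer cells of a type and less RNA per cell cannot be told apart, and the part of these cell types in the results below was not tested. The marker calls come from the fit that does not allow for transcript length. In that fit 18.7% of all tested genes were called lower. Across all tested genes the fold change also moved with transcript length. Over 10 bins of equal size, the median log2 fold change was -0.52 in the genes with the shortest principal transcripts (57 to 1115 bases) and 0.36 in those with the longest (6422 bases or more).

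The 34 genes followed the same trend. Across the 33 tested genes, Spearman's rho between log2 fold change and principal transcript length was 0.74, and over all genes it was 0.48. Against exon length, rho was 0.48 across the 33 genes and 0.43 over all genes. These are descriptions across genes, which are not independent. The fit was therefore repeated with offsets for each library that follow a smooth trend on length and GC content, with exon length as listed in the tables and, as an alternative chosen after seeing the data, with principal transcript length from GENCODE M21. With exon-length offsets 14 members were called higher and 4 lower, against 30.9% called of all genes (14.4% higher and 16.5% lower). With transcript-length offsets 15 members were called, all of them higher, against 28.7% of all genes (13.6% higher and 15% lower). In that fit rho with principal transcript length was still 0.33 across the 33 genes, against 0.02 over all genes, so part of the trend remained among them. In the fit with exon-length offsets, rho with exon length was 0.002 across the 33 genes and 0.03 over all genes. Thus 66.7% of the calls were higher without offsets, 77.8% with exon-length offsets and 100% with transcript-length offsets. The median from glucose entry to the PFKFB enzymes was 0.12 with exon-length and 0.19 with transcript-length offsets. From aldolase to lactate dehydrogenase it was 0.0054 and 0.11. With exon-length offsets 4 genes rose and 1 fell in the first segment, and 2 rose and 2 fell in the second. With transcript-length offsets 5 and 3 rose, and 0 fell in either segment. In all, 10 members were called higher without offsets and under each of 15 alternatives: Hk2, Pfkm, Pfkl and Pfkfb1 of glycolysis and Gys1, Gbe1, Pygm, Pygb, Phkb and Gaa of the glycogen arm. The other 11 calls, among them all 7 lower ones, did not pass under at least 1 alternative.

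**Figure D2:**
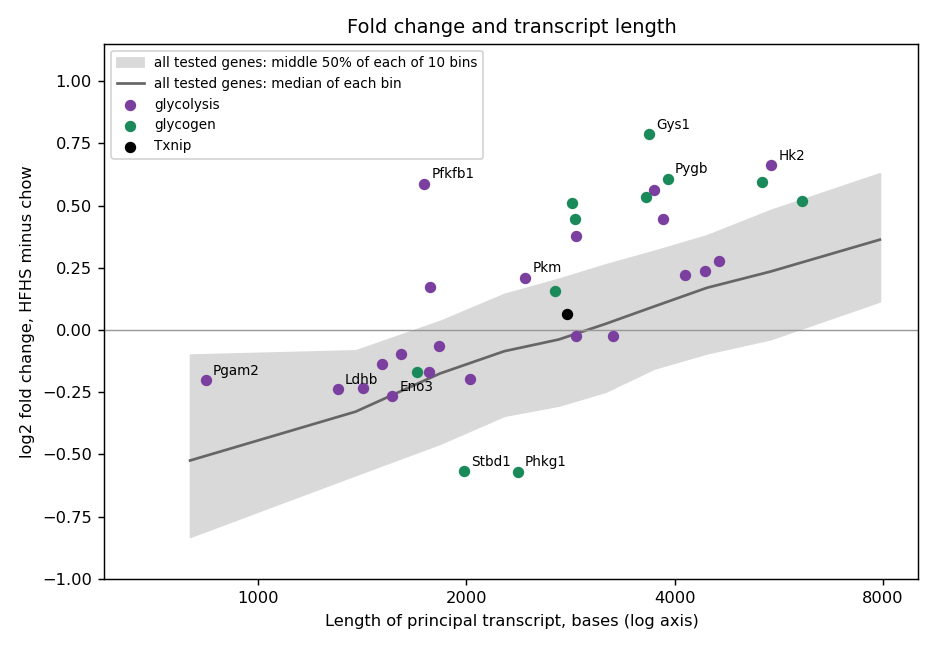
Log2 fold change of the tested genes against the length of the principal transcript in bases (log axis), with glycolysis genes in purple, glycogen genes in green and Txnip in black. The line joins the medians of 10 bins of all tested genes, from -0.52 to 0.36, and the band spans the middle 50% of each bin. Among others, Gys1 and Pfkfb1 lie above the band of genes of their length, Stbd1 and Phkg1 lie below it, and Pgam2, Ldhb and Eno3 lie inside it.

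Levels are compared between genes as CPM per kilobase of principal transcript, and their order depends on the length used. Per kilobase of exon, the chow means were 842 for Ldhb, 626 for Eno3, 545 for Gapdh and 479 for Aldoa. The values below are per kilobase of principal transcript. In chow hearts Gapdh, glyceraldehyde phosphate dehydrogenase, was the highest at 1587 ± 48.8 (SD, n = 2), followed by Aldoa at 1192 ± 45.9, Ldhb at 1014 ± 109 and Eno3 at 696 ± 38.0. In HFHS hearts the same genes led in the same order, at 1350 ± 94.7, 1086 ± 59.7, 860 ± 15.5 and 579 ± 11.98 (SD, n = 3). Many neighbours in the order did not differ beyond their spread. In chow hearts Tpi1 (330 ± 6.38) and Pkm (328 ± 17.2), Pfkm (246 ± 15.7) and Pygm (240 ± 16.0), Pgk1 (138 ± 9.16) and Pygb (132 ± 5.13), and Pfkl (18.5 ± 2.13) and Gaa (17.6 ± 0.875) were such pairs. In HFHS hearts Pygb stood at 200.5 ± 10.8 and Pgk1 at 132 ± 1.99. The lowest of the tested genes were Pfkfb3 at 2.07 ± 0.0460 and Slc2a1 at 2.79 ± 0.0984 in chow hearts. Aldoc, the brain aldolase, held 0 to 3 counts in every library and was not tested.

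**Figure D3:**
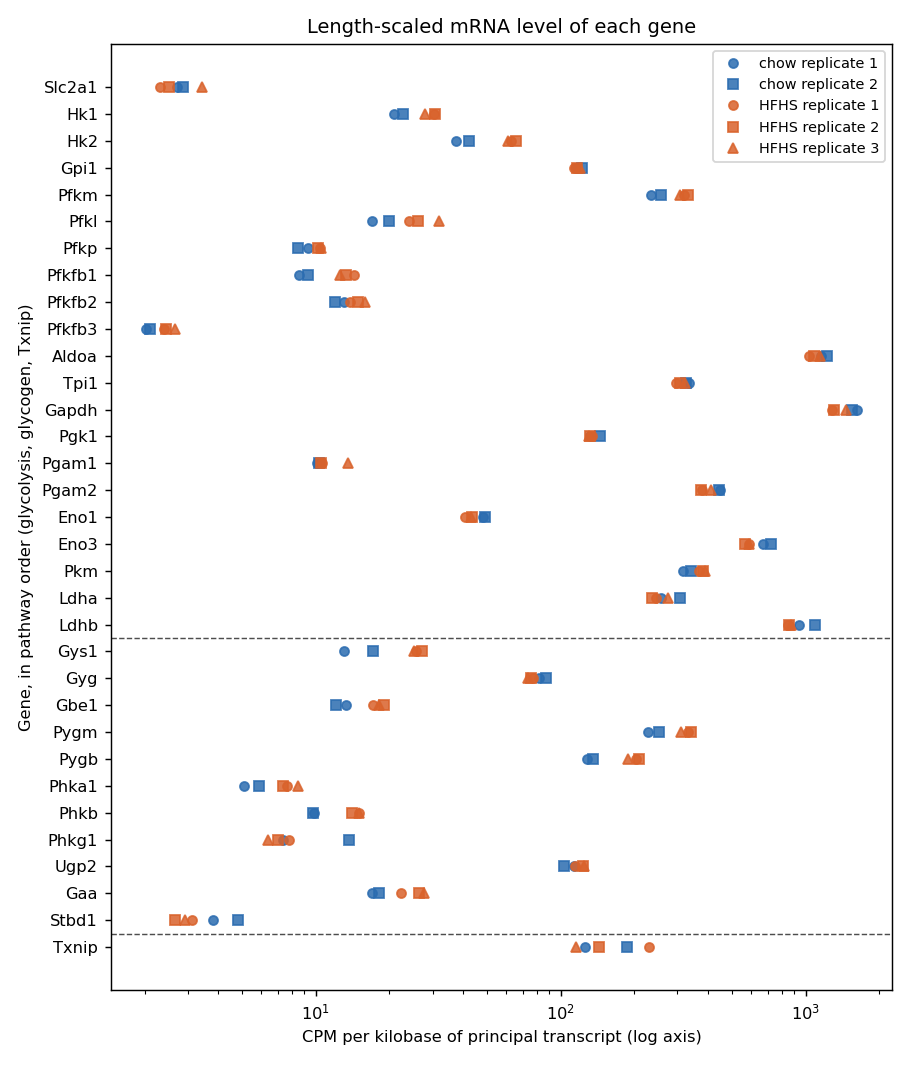
Level of each tested gene in pathway order, in CPM per kilobase of principal transcript on a log axis, with 1 symbol for each of the 2 chow (blue) and 3 HFHS (orange) libraries. Gapdh, Aldoa, Ldhb and Eno3 are the highest in both groups, and group means span from 2.07 (Pfkfb3, chow) to 1587 (Gapdh, chow).

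Summed over the arm, glycogen genes took 1855 and 1970 CPM in the chow libraries and 2560, 2648 and 2484 CPM in the HFHS libraries, without overlap of the groups. The 10 genes from glucose entry to the PFKFB enzymes summed to 1489 and 1611 CPM in chow and 1948, 2017 and 1953 CPM in HFHS hearts. The genes from aldolase to lactate dehydrogenase summed to 8816 and 9256 CPM in chow and 7866, 7985 and 8509 CPM in HFHS hearts. All glycolysis genes together, most of whose counts come from the second segment, overlapped between the groups on this scale (10305 and 10866 CPM against 9814, 10002 and 10462 CPM). As a share of total counts they did not overlap, at 1.07% and 1.13% in chow and 0.950%, 0.970% and 1.03% in HFHS libraries. Sums are not tested here, are led by their most abundant genes and do not allow for the length trend. Gapdh, Aldoa, Ldhb and Eno3 had log2 values of -0.27, -0.14, 0.06 and 0.002 with exon-length offsets. With transcript-length offsets these values were 0.03, 0.11, 0.06 and -0.04.

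Single genes are described in pathway order. Glucose enters cardiomyocytes through the transporters GLUT1 and GLUT4. Slc2a1, which encodes the basal transporter GLUT1, did not pass the test: its level was 8.88 and 9.33 CPM in chow and 7.56, 8.18 and 11.2 CPM in HFHS hearts, and the groups overlapped (log2 fold change -0.02, SE 0.17, adjusted p = 0.929). Hexokinase then traps glucose as its phosphate. Hk2, the main hexokinase of insulin-responsive muscle (ENSMUSG00000000628, chromosome 6, 82725025 to 82774454, GRCm38, minus strand), stood at 207 and 232 CPM in chow and at 345, 361 and 337 CPM in HFHS hearts. Every HFHS library was above both chow libraries. The rise was 1.58-fold (log2 0.66, SE 0.0757, edgeR adjusted p = 1.35e-05). Genes with principal transcripts of 4883 to 6420 bases, like that of Hk2, had a median of 0.23, and the Hk2 value was 0.50 with exon-length and 0.38 with transcript-length offsets (adjusted p = 0.00012 and 0.00097).

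Hk1, the hexokinase found in most tissues, rose 1.36-fold, from 80.4 and 87.4 CPM to 117, 118 and 108 CPM (log2 0.45, SE 0.0788, adjusted p = 0.0005). With exon-length offsets it was 0.18 and did not pass (adjusted p = 0.0695), and with transcript-length offsets it was 0.31 and passed (adjusted p = 0.0061). Gpi1, which turns glucose phosphate into fructose phosphate, held 333 and 353 CPM in chow and 328, 336 and 347 CPM in HFHS hearts. The groups overlapped and Gpi1 did not pass (log2 -0.03, adjusted p = 0.801), except that the exon-length offsets gave -0.21 (adjusted p = 0.0215).

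Phosphofructokinase is the committing step of glycolysis. Its muscle subunit Pfkm held 675 and 739 CPM in chow and 921, 953 and 884 CPM in HFHS hearts, with no overlap. It rose 1.30-fold (log2 0.38, SE 0.0706, adjusted p = 0.00077). The liver subunit Pfkl, at a lower level, rose 1.48-fold from 63.3 and 74.6 CPM to 89.4, 97.7 and 118.8 CPM (log2 0.56, SE 0.112, adjusted p = 0.0012). The platelet subunit Pfkp was higher in every HFHS library, at 38.7 and 35.2 CPM against 43.2, 42.4 and 43.5 CPM, but did not pass (log2 0.22, adjusted p = 0.055). With exon-length offsets its value was -0.07.

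The PFKFB enzymes make and remove a fructose bisphosphate that activates phosphofructokinase. Pfkfb1 rose 1.502-fold, from 14.8 and 16.2 CPM to 24.9, 23.0 and 21.9 CPM (log2 0.59, SE 0.108, adjusted p = 0.00066), and its values with exon-length and transcript-length offsets were 0.59 and 0.81. Its principal transcript of 1739 bases is short, and genes of 1613 to 2042 bases had a median of -0.17. Pfkfb2, the isoform best known from heart, held 57.9 and 53.3 CPM in chow and 61.0, 65.7 and 70.1 CPM in HFHS hearts. It rose 1.18-fold at the edge of the threshold (log2 0.24, SE 0.0857, adjusted p = 0.0411). The call held in 5 of 15 alternatives and was lost with the offsets (0.04 and 0.07) and without chow replicate 2, HFHS replicate 2 or HFHS replicate 3. Gm29427 covers 17.4% of the Pfkfb2 exon bases on the same strand and held 16 to 26 counts. Pfkfb3, the inducible isoform, was at 9.42 and 9.72 CPM against 11.2, 11.3 and 12.3 CPM and did not pass (log2 0.28, adjusted p = 0.106).

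Promoters are shown for the gene with the largest rise in each arm, Hk2 and Gys1, and for Ldha, which holds 2 E boxes. An E box, CACGTG, is the core bound by carbohydrate-response and MYC-type factors, and its overlapping part ACGTG is the core of the hypoxia-response element. The sequences are the 250 bases before the RefSeq transcription start (GRCm38.p6), 5′ to 3′ on the gene's strand, and capitals mark ACGTG on either strand with the C that completes an E box where there is one.
Hk2, chr6:82774455-82774704, minus strand: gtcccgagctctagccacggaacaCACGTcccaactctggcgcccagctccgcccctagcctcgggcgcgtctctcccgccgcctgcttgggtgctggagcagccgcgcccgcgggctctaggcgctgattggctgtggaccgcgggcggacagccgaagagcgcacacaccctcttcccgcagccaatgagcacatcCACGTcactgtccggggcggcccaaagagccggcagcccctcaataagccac
Gys1, chr7:45434589-45434838, plus strand: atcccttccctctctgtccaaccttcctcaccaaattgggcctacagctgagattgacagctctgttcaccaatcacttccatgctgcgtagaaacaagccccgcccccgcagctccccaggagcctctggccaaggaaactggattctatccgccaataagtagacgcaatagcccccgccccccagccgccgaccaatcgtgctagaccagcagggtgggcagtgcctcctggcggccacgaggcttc
Ldha, chr7:46845554-46845803, plus strand: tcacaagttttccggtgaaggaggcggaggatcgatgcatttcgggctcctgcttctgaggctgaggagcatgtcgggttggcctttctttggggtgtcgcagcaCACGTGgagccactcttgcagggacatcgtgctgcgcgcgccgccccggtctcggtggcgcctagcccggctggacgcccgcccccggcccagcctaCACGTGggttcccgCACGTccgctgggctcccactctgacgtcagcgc
In Hk2 the matches began 226 and 52 bases before the start, and in Ldha 145, 48 and 34 bases before it, the first pair being E boxes. Gys1 held none in this window, which says only that these letters are not there. Windows from 250 bases before to 50 bases after the start were found for all 34 genes, 52 windows in all, since some genes have several starts. ACGTG was in 22 of them (42.3%), against 19.6% of all 32851 windows, and in 18 of 34 genes (52.9%), against 21.8% of all genes. CACGTG, which contains ACGTG on both strands, was in 6 windows (11.5%, against 7.15%), those of Pfkm, Pfkfb2, Pfkfb3, Ldha, Gyg and Gaa. These are matches of letters and not sites of binding. The genes with ACGTG included Hk2 and Pygb, which rose, Gapdh, which fell, and Ldha, which did not pass.

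The steps below phosphofructokinase held the most abundant of the genes. Aldolase Aldoa stood at 1752 and 1850 CPM in chow and 1556, 1629 and 1736 CPM in HFHS hearts and did not pass (log2 -0.13, adjusted p = 0.14). Tpi1, triose phosphate isomerase, was at 537 and 523 CPM against 475, 492 and 519 CPM (log2 -0.10, adjusted p = 0.288). In both genes every HFHS library was below both chow libraries, and with transcript-length offsets both values were positive (0.11 each), while exon-length offsets gave -0.14 for Aldoa and 0.0054 for Tpi1, none past the threshold. Gapdh held 2303 and 2205 CPM in chow and 1825, 1855 and 2071 CPM in HFHS hearts, again without overlap. It fell, to 0.85 of its chow level (log2 -0.23, SE 0.071, adjusted p = 0.0185). The call was lost without chow replicate 1 (adjusted p = 0.0601) or HFHS replicates 1 or 2 (0.109 each) and with transcript-length offsets, where the value was 0.03 (adjusted p = 0.768). With exon-length offsets Gapdh was called lower (-0.27, adjusted p = 0.007).

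Pgk1, phosphoglycerate kinase, overlapped between the groups at 240 and 264 CPM against 245, 240 and 238 CPM (log2 -0.06, adjusted p = 0.51). Pgam2, the muscle phosphoglycerate mutase, was at 376 and 372 CPM in chow and 317, 313 and 345 CPM in HFHS hearts. It fell without offsets (log2 -0.20, SE 0.0702, adjusted p = 0.036) and was higher with them, by 0.19 with exon-length offsets (adjusted p = 0.0356) and by 0.23 with transcript-length offsets (adjusted p = 0.017). Its transcript of 840 bases lies among the shortest, where all genes had a median of -0.52. The call was also lost without either chow library or without HFHS replicate 1 or 2. Pgam1, the isoform of most other tissues, was at 18.0 and 18.3 CPM against 18.9, 18.6 and 24.1 CPM and did not pass (log2 0.18, adjusted p = 0.29), except with offsets (0.42 and 0.35, adjusted p = 0.0162 and 0.0478).

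Enolase makes phosphoenolpyruvate, and its muscle form is Eno3. Eno3 held 1047 and 1131 CPM in chow and 915, 885 and 919 CPM in HFHS hearts, with no overlap. It fell, to 0.83 of the chow level (log2 -0.27, SE 0.0664, adjusted p = 0.006), and the call held in the 13 alternatives without length offsets. With exon-length offsets the value was 0.002 (adjusted p = 0.989) and with transcript-length offsets -0.04 (adjusted p = 0.675). The general form Eno1 was at 97.3 and 99.2 CPM against 82.3, 88.1 and 86.9 CPM and fell at the edge of the threshold (log2 -0.20, SE 0.0733, adjusted p = 0.0487), a call lost in 11 of 15 alternatives, among them the omission of any 1 library. With transcript-length offsets the Eno1 value was -0.08 (adjusted p = 0.437), and with exon-length offsets it was called lower (-0.32, adjusted p = 0.003).

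Pkm, pyruvate kinase, was the gene of the lower segment called higher. It held 769 and 828 CPM in chow and 897, 929 and 945 CPM in HFHS hearts (log2 0.21, SE 0.0677, adjusted p = 0.025). The call was lost without chow replicate 1 (adjusted p = 0.119), HFHS replicate 1 (0.0549) or HFHS replicate 2 (0.1), and with exon-length offsets (0.11, adjusted p = 0.213), but not with transcript-length offsets (0.25, adjusted p = 0.0082). The row of Gm49759 covers 15.3% of the Pkm exon bases on the same strand and held 271 to 429 counts.

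Lactate dehydrogenase has a heart subunit, Ldhb, and a muscle subunit, Ldha. Ldhb held 1222 and 1423 CPM in chow and 1102, 1118 and 1143 CPM in HFHS hearts. It fell, to 0.85 of the chow level (log2 -0.24, SE 0.0734, adjusted p = 0.0198). The call was lost without chow replicate 2 (-0.13, adjusted p = 0.191) and without HFHS replicate 1 or 2 (0.0902 and 0.084), and the value was 0.06 with either set of offsets. Ldha was at 454 and 543 CPM against 431, 416 and 483 CPM, overlapped between the groups and did not pass (log2 -0.17, adjusted p = 0.143), but it passed without chow replicate 1 (-0.29, adjusted p = 0.0152). Reads of Aldoa, Gapdh, Pgk1, Pgam1, Eno1 and Ldha can be shared with near-identical copies of these genes, so their levels are uncertain. The named copies other than Gapdhs held 0 to 6 counts in any library, and Gapdhs held 14 to 39.

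Most genes of glycogen synthesis and breakdown were higher in HFHS hearts. Gys1, the muscle glycogen synthase (ENSMUSG00000003865, chromosome 7, 45434844 to 45456619, plus strand), stood at 47.8 and 63.2 CPM in chow and 94.7, 99.99 and 92.7 CPM in HFHS hearts. The chow libraries differed from each other by more than the HFHS libraries did, and the groups did not overlap. The 1.73-fold rise (log2 0.79, SE 0.104, adjusted p = 4.75e-05) was the largest among the 34 genes. It ranged from 0.60 without chow replicate 1 to 1.00 without chow replicate 2, and it was 0.70 and 0.67 with exon-length and transcript-length offsets. Exons of Ruvbl2 on the other strand cover 6.47% of those of Gys1 and held 246 to 319 counts in all.

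Of the other synthesis genes, the branching enzyme gene Gbe1 rose 1.42-fold, from 37.9 and 34.3 CPM to 48.7, 54.2 and 51.6 CPM (log2 0.51, SE 0.0884, adjusted p = 0.00043). Gyg, the glycogenin primer, was lower in every HFHS library, at 139 and 148 CPM against 130.5, 128 and 125 CPM, but did not pass (log2 -0.17, adjusted p = 0.0789), and its value was 0.03 with exon-length and 0.06 with transcript-length offsets. Ugp2, which makes the UDP-glucose that glycogen synthase adds, was at 303 and 278 CPM against 306, 332 and 336 CPM and did not pass (log2 0.16, adjusted p = 0.107). With offsets the Ugp2 value passed, at 0.24 and 0.21 (adjusted p = 0.0226 and 0.0417).

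Of the 3 glycogen phosphorylase genes, the 2 abundant ones rose. Pygm, the muscle form, held 657 and 722 CPM in chow and 950, 977 and 888 CPM in HFHS hearts (1.36-fold, log2 0.45, SE 0.0727, adjusted p = 0.00027). Pygb, the form named for brain, held 499.9 and 528 CPM in chow and 797, 817 and 737 CPM in HFHS hearts (1.52-fold, log2 0.61, SE 0.072, adjusted p = 1.87e-05). Neither gene overlapped between groups. With exon-length offsets the values were 0.49 and 0.52, and with transcript-length offsets 0.42 and 0.46, all past the threshold. Pygl, the liver form, which is not among the 34, was at 4.12 ± 0.850 CPM in chow and 3.83 ± 0.567 CPM in HFHS hearts and did not pass (log2 -0.10, adjusted p = 0.759).

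Phosphorylase kinase has regulatory subunits alpha and beta and a catalytic subunit gamma. The regulatory subunit genes rose, Phka1 1.43-fold from 31.2 and 35.8 CPM to 46.8, 45.1 and 51.8 CPM (log2 0.52, SE 0.0959, adjusted p = 0.00074) and Phkb 1.51-fold from 52.5 and 52.1 CPM to 80.6, 75.5 and 80.7 CPM (log2 0.59, SE 0.0774, adjusted p = 4.27e-05). With transcript-length offsets Phkb was at 0.39 (adjusted p = 0.0016) and Phka1 at 0.23, which did not pass (adjusted p = 0.088). With exon-length offsets both were called higher (0.43 and 0.37). Phkg1, the muscle catalytic subunit, was at 17.4 and 32.3 CPM in chow and 18.4, 16.6 and 15.1 CPM in HFHS hearts. It was called lower (log2 -0.57, SE 0.192, adjusted p = 0.0307), yet its groups overlap, since chow replicate 1 lies among the HFHS libraries. The value was -0.06 without chow replicate 2 (adjusted p = 0.813) and -0.95 without chow replicate 1 (adjusted p = 3.12e-05), and the call was also lost without any of the HFHS libraries in turn (adjusted p = 0.0566 to 0.103). Of the skeletal muscle markers, Myh2 and Myh4 were at 0 in all 5 libraries. The summed markers, mostly Acta1, were at 64.6 CPM in chow replicate 2 and 149.9 to 224.9 CPM in the other 4. Exons of Sumf2 on the other strand cover 9.68% of those of Phkg1, and the strand setting of the counting was not given in the sources used here.

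In the lysosomal route Gaa, acid alpha-glucosidase, rose 1.45-fold, from 61.6 and 66.1 CPM to 80.8, 96.3 and 100.6 CPM (log2 0.54, SE 0.0955, adjusted p = 0.00054). Stbd1, which tethers glycogen to membranes, fell from 7.58 and 9.55 CPM to 6.18, 5.31 and 5.81 CPM (log2 -0.57, SE 0.168, adjusted p = 0.0162). The Stbd1 call was lost without chow replicate 2 (-0.39, adjusted p = 0.158) and without HFHS replicate 2 (adjusted p = 0.0654), with DESeq2 (0.0606), and with the offsets (-0.39 and -0.44, adjusted p = 0.0976 and 0.063). Txnip, which responds to glucose and restrains its uptake, varied within both groups, at 350 and 522 CPM in chow and 642, 402 and 324 CPM in HFHS hearts. It did not pass (log2 0.06, SE 0.213, adjusted p = 0.839), and leaving out chow replicate 1 or HFHS replicate 1 turned its sign (-0.19 and -0.26). The antisense gene Gm15441 covers 19.4% of the Txnip exon bases and held 3 to 11 counts.

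**Figure D4:**
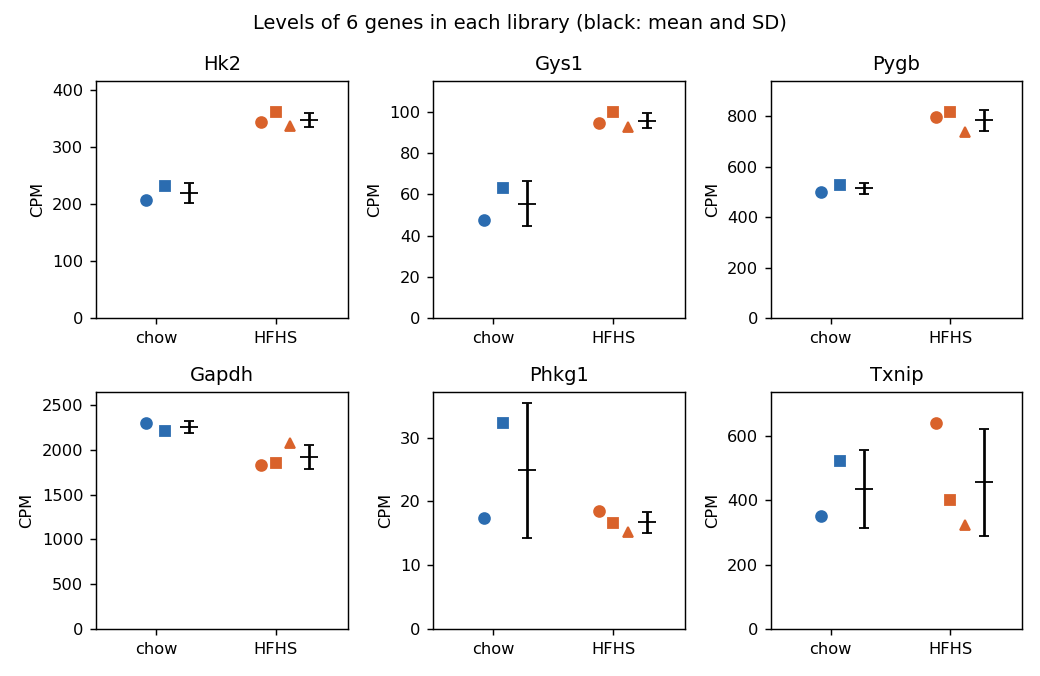
Levels in CPM of Hk2, Gys1, Pygb, Gapdh, Phkg1 and Txnip in the chow and HFHS groups, where each point is 1 library and the black marks give the mean and SD. Hk2, Gys1 and Pygb show every HFHS library above both chow libraries, and Phkg1 shows 1 chow library at 32.3 CPM far above the other 4, which lie between 15.1 and 18.4 CPM.

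**Figure D5:**
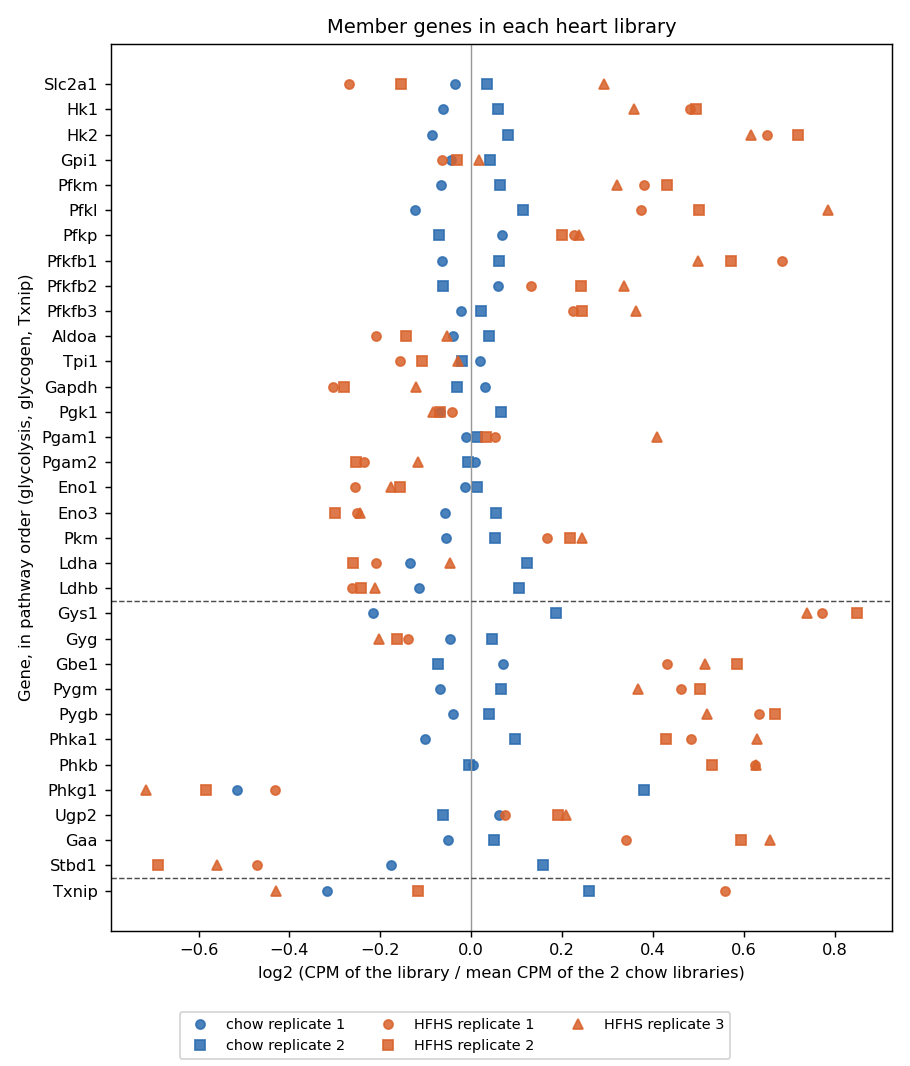
Level of each tested gene in every library, as log2 of its CPM over the mean of the chow libraries, with chow and HFHS libraries as separate symbols. The HFHS libraries lie right of the chow libraries in most glycogen genes and in Hk1, Hk2, Pfkm and Pfkl, and left of them in Gapdh, Pgam2, Eno1 and Eno3, while Txnip and Phkg1 show wide spread within a group.

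Shares of isoforms within 7 enzyme families were computed from CPM per kilobase of exon, and their size depends on the length used. Per kilobase of principal transcript, the mean shares in chow and HFHS hearts were 64.6% and 68.0% for Hk2. On that scale they were 37.9% and 43.6% for Pfkfb1, 78.2% and 77.4% for Ldhb, and 35.4% and 38.0% for Pygb. The shares below are per kilobase of exon. Hk2 made up 78.9% ± 0.378 (SD, n = 2) of Hk1 and Hk2 together in chow and 81.3% ± 0.468 (SD, n = 3) in HFHS hearts, higher in all 3 HFHS libraries. Pygb made up 33.3% ± 0.613 of Pygm and Pygb together in chow and 35.8% ± 0.145 in HFHS hearts, again without overlap. Pgam2 remained most of its pair with Pgam1, at 97.8% ± 0.0421 and 97.2% ± 0.265. For these 3 shares the exact two-sided permutation test over 10 splits gave p = 0.1, the smallest it can give with 3 against 2 libraries, and 0.367 adjusted over 11 shares. Division by a fixed length does not remove a length trend that differs between libraries, and shares were not computed with offsets. The log2 fold changes of Pygb and Pygm were 0.61 and 0.45 without offsets. They were 0.52 and 0.49 with exon-length and 0.46 and 0.42 with transcript-length offsets. In the same fits Hk2 and Hk1 stood at 0.66 and 0.45, 0.50 and 0.18, and 0.38 and 0.31. Pgam2 and Pgam1 stood at -0.20 and 0.18, 0.19 and 0.42, and 0.23 and 0.35. The shares of Pfkm among the phosphofructokinases (92.4% and 91.8%), of Eno3 among the enolases (97.2% and 97.0%) and of Ldhb among the lactate dehydrogenases (84.8% and 84.2%) overlapped between groups. Among the PFKFB genes the mean share of Pfkfb1 was 30.2% in chow and 35.4% in HFHS hearts, and that of Pfkfb2 was 59.9% and 55.2%, both with exact permutation p = 0.2.

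Other genes of these pathways were described from further lists. Of 15 tested glycolysis genes outside the 34, 3 rose, 2 fell and 10 did not pass, which at 33.3% is near the share among all genes. Bpgm, which makes the bisphosphoglycerate known from red cells, fell from 37.5 ± 1.02 to 21.5 ± 2.94 CPM (log2 -0.80, adjusted p = 6.56e-05), and the erythroid markers given above fell with it. Their part in the fall of Bpgm was not tested. Tigar, a fructose bisphosphatase that lowers the activator of phosphofructokinase, rose by 0.39 on the log2 scale (adjusted p = 0.0012), and the muscle fructose bisphosphatase gene Fbp2 rose by 0.40 (adjusted p = 0.0052). Slc2a4, the insulin-responsive transporter GLUT4, did not pass at 237 ± 24.9 CPM against 272 ± 23.9 CPM (log2 0.20, adjusted p = 0.0896), but passed without chow replicate 2 (0.31, adjusted p = 0.0169) or HFHS replicate 1 (0.27, adjusted p = 0.0466) and with transcript-length offsets (0.23, adjusted p = 0.0428).

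Of 19 tested glycogen genes outside the 34, 7 rose, 0 fell and 12 did not pass, with a median of 0.38. These calls are 36.8% of the 19, against 38.1% of all genes called in either direction and 19.4% called higher. Pgm5 and the phosphoglucomutase gene Pgm1 rose by 0.57 and 0.42 on the log2 scale (adjusted p = 6.71e-05 and 0.00026). Gsk3b, a kinase that inactivates glycogen synthase, rose by 0.58 (adjusted p = 9.6e-05), a call that held with exon-length offsets (0.32, adjusted p = 0.0074) but not with transcript-length offsets (0.20, adjusted p = 0.0749). With transcript-length offsets 4 of the 19 passed, all of them higher, against 28.7% of all genes in either direction and 13.6% higher.

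Of 8 genes of lactate and pyruvate transport and related steps, 2 rose and 3 fell (62.5% called, against 38.1% of all genes). Slc16a1, the monocarboxylate transporter, rose from 176 ± 0.458 to 248 ± 15.0 CPM (log2 0.49, adjusted p = 0.00015), and the D-lactate dehydrogenase gene Ldhd rose from 26.7 ± 3.08 to 39.5 ± 0.917 CPM (log2 0.56, adjusted p = 0.0004). The mitochondrial pyruvate carrier genes fell, Mpc2 from 336 ± 7.94 to 223 ± 14.8 CPM (log2 -0.59, adjusted p = 2.78e-05) and Mpc1 from 241 ± 2.59 to 183 ± 7.82 CPM (log2 -0.40, adjusted p = 0.00044). Their principal transcripts are short (1025 and 958 bases), and with transcript-length offsets neither passed (-0.15 and 0.03, adjusted p = 0.134 and 0.75). With exon-length offsets Mpc2 was called lower (-0.76, adjusted p = 5.8e-06) and Mpc1 did not pass (-0.16, adjusted p = 0.0933).

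Of 16 genes of side pathways that start from glucose phosphate and the triose phosphates, 3 rose and 8 fell. These calls are 68.75% of the list, against 38.1% of all genes. Gpd1, the glycerol phosphate dehydrogenase, rose from 33.5 ± 2.78 to 54.0 ± 3.29 CPM (log2 0.69, adjusted p = 5.07e-05). The entry enzymes of the hexosamine pathway moved apart, Gfpt1 from 18.8 ± 0.317 to 29.0 ± 0.438 CPM (log2 0.63, adjusted p = 0.00015) and Gfpt2 from 24.5 ± 4.87 to 13.2 ± 0.855 CPM (log2 -0.89, adjusted p = 0.0001). Both calls held in 15 of 15 alternatives. Taldo1 of the pentose phosphate pathway fell by 0.38 on the log2 scale (adjusted p = 0.0012), a call lost with either set of offsets. Without chow replicate 2 the list had 6 calls in place of 11, and with transcript-length offsets 7.

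Of 14 regulators of glycolytic genes, 6 rose and 1 fell (50% called, against 38.1% of all genes). Mlxip, a glucose-sensing transcription factor, rose from 40.9 ± 3.77 to 64.9 ± 1.16 CPM (log2 0.67, adjusted p = 3.45e-05), and Mef2d, a muscle transcription factor, rose from 96.7 ± 13.8 to 152 ± 0.930 CPM (log2 0.65, adjusted p = 5.39e-05). Arrdc4, a relative of Txnip, fell from 20.4 ± 0.172 to 13.5 ± 0.222 CPM (log2 -0.59, adjusted p = 0.00049). Epas1, a hypoxia-inducible factor, rose by 0.39 on the log2 scale (adjusted p = 0.0029) and passed with exon-length offsets (0.27, adjusted p = 0.0231) but not with transcript-length offsets (0.11, adjusted p = 0.332). With exon-length offsets 4 of the 14 regulators passed, against 30.9% of all genes.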

How the data were processed

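Poly-A RNA libraries of mouse heart, 3 HFHS and 2 chow, were analysed from raw gene counts deposited by the authors, 1 table per library. The submitters' processing notes name Trimmomatic 0.36, STAR 2.5.2b, Subread 1.5.2 with featureCounts, and GRCm38. Strandedness, multiple mapping and the annotation used in counting were not given in the sources used here. Of 49315 rows, 48970 had a GENCODE M21 symbol. The members, gene lists and markers were chosen with earlier results of these data known. All 34 members are named or accounted for, and of each further list the 4 tested genes with the smallest p, plus Slc2a4 and Pygl, which were chosen after their values were seen. Some genes that met this rule are not reported here.

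Gene counts were compared between diets with edgeR 4.0.16 under R 4.3.3 (filterByExpr, TMM, glmQLFit and glmQLFTest on diet), with p-values adjusted by Benjamini-Hochberg over 14221 genes and a threshold of 0.05. The approximate standard error is the coefficient over the root of F. CPM values are scaled by TMM library sizes, and marker sums by total counts. Depth limits low genes: 3 counts are 0.162 to 0.215 CPM on the TMM scale. A chi-square of counts per degree of freedom was 2.64 to 8.84 within groups and 47.5 to 62.5 between them, so every pair differed by more than sampling noise.

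The fit was repeated with RLE and upper-quartile size factors, DESeq2 1.42.0, limma-voom (limma 3.58.1), other filters, without mitochondrially encoded genes, without each library, with a replicate block, and per-library offsets from a smooth trend (mgcv 1.9.3) on length and GC content. Promoter windows came from RefSeq.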

Additional observations from a re-analysis of the deposited data

How the results depend on the processing

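Member genes called numbered 21 (14 higher, 7 lower), from 13 to 19 with 1 library left out, the lowest without HFHS replicate 2 (12 higher, 1 lower). Glycolysis members called numbered 12, from 6 to 10 with 1 library left out (7 without HFHS replicate 1, 6 without HFHS replicate 2), and glycogen members 9, from 7 to 9. Over all genes, 4248 of 14119 were called without HFHS replicate 2 and 4428 of 14046 without HFHS replicate 1. With the replicate number as a block, the counts were 21, 12 and 9, and 5332 of all genes against 5417 without the block. Across genes, deviations of same-numbered libraries from their group means were weakly correlated (r = 0.035 and 0.026). With 2 chow libraries the chow deviations mirror each other, so these values cannot tell whether the numbers pair the samples. HFHS replicate 3 has no partner in the block. The Pygl value was 0.000301 with the block.

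Of 824 single-gene values under an alternative, 729 kept direction and side of the threshold, 56 no longer passed, 14 newly passed and 25 changed sign. With exon-length offsets the sign changed in Pfkp (-0.067), Tpi1 (0.0054), Pgk1 (0.13), Pgam2 (0.19), Eno3 (0.0016), Ldhb (0.059) and Gyg (0.030). With transcript-length offsets, chosen after seeing the data, it changed in Aldoa (0.11), Tpi1 (0.11), Gapdh (0.030), Pgk1 (0.11), Pgam2 (0.23), Ldha (0.0046), Ldhb (0.056), Gyg (0.063) and Mpc1 (0.034). Leaving out libraries turned 5 genes that had not passed: Slc2a1 (0.011, 0.091 and 0.036 without chow replicate 2, HFHS replicate 1 and HFHS replicate 2; range -0.21 to 0.091), Gpi1 (0.017 without chow replicate 2), Pgk1 (0.0041 without chow replicate 2; range -0.13 to 0.0041), Pygl (0.12 without chow replicate 2; range -0.30 to 0.12) and Txnip (-0.19 and -0.26 without chow replicate 1 and HFHS replicate 1; range -0.26 to 0.38). The Pfkm share difference ranged from -1.04 to 0.042 percentage points. The further lists, added after seeing the data, gave 5 transport genes (3 with exon-length and 2 with transcript-length offsets), 7 other glycogen genes (4 with transcript-length offsets), 11 side-pathway genes (7 with transcript-length offsets, 6 without chow replicate 2, range 6 to 11 with 1 library left out) and 7 regulators (4 with exon-length offsets). The cause of these changes was not tested. Over all genes 38.1% were called without offsets, 30.9% with exon-length and 28.7% with transcript-length offsets.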
